A study of Mus musculus with 10 samples.

Results

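Creb3l2 and 9 further regulators and effectors of secretory pathway stress were examined in colon RNA of mice on a normal or a pro-inflammatory diet. The 10 genes, Creb3l2, Creb3l1, Creb3l4, Atf6, Ern1, Ern2, Xbp1, Atf4, Ddit3 and Hspa5, are 10 of the 18398 gene symbols in the deposited table. They are a list of names, chosen by the measured diet contrast of these same libraries, in which Creb3l2 had the strongest single-gene difference of the 12345 genes tested. The diet values of the 10 genes are therefore given as a description, without a test. By the moderated statistic that chose it, Creb3l2 ranked 1 with a log2 difference of -0.60 (SE 0.08), and the next gene, Fancl, was at 0.49 (SE 0.07). All 10 genes passed the filter on low values, a mean of at least 1 FPKM. FPKM counts the fragments mapped to a gene, divided by its length and by the library's total, so levels can be compared between genes.

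The samples were colon tissue of wild-type mice (labelled WT), 5 on a normal diet used as control and 5 on a pro-inflammatory diet, and the comparison asks how the diet alters colon gene expression. The libraries were made from total RNA with a stranded mRNA kit. The sources used here do not give strain, age, diet composition, duration, or whether colitis was induced. They also do not say that each sample is a separate animal, so p-values measure only how far these samples lie apart, in part perhaps for technical reasons. The title of the series refers to colitis and gut microbiota. Libraries are named by diet and by the number in their title.

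Membrane-bound bZIP factors such as CREB3L2 and ATF6 are made as precursors in the endoplasmic reticulum (ER) membrane. They are carried to the Golgi, cut by the site-1 and site-2 proteases, and then enter the nucleus as active transcription factors. CREB3L2 and CREB3L1 (also called BBF2H7 and OASIS) are known for raising the capacity of cells that secrete large proteins, CREB3L2 in cartilage through the coat gene Sec23a and CREB3L1 in bone and in goblet cells of the colon. The unfolded protein response uses ATF6, the IRE1 kinases, which splice Xbp1 mRNA, and PERK, which acts through Atf4 and Ddit3. The chaperone BiP, encoded by Hspa5, holds the sensors inactive and is itself a main target. In the gut, mucus-secreting goblet cells and antibody-secreting plasma cells rely on this system.

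Promoter sequence is shown for the gene the list was drawn up for and for the chaperone that serves as the usual readout of the response. Both windows are the 250 bases before the RefSeq start (build GRCm38.p6), read 5′ to 3′ on the gene's strand. Capitals mark the ER stress response element (ERSE, CCAAT and CCACG separated by 9 bases of any kind) and the core of the cAMP response element (TGACGT), each searched on both strands.
Creb3l2, chr6:37442149-37442398, minus strand: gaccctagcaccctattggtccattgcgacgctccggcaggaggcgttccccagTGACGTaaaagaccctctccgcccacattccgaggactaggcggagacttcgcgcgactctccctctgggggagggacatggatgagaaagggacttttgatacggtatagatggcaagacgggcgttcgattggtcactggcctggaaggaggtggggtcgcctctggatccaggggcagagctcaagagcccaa
Hspa5, chr2:34771840-34772089, plus strand: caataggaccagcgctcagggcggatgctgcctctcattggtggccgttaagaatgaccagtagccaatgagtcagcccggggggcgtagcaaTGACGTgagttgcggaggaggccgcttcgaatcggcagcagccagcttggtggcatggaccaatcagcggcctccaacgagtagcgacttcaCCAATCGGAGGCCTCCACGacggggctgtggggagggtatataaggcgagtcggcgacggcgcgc
The Hspa5 window held the ERSE as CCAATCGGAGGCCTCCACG, from 65 to 47 bases before the start, and TGACGT from 157 to 152 bases before it. The GENCODE start of Hspa5, at 34771970, lies inside this window and before the ERSE, so these distances hold for the RefSeq start only. The Creb3l2 window held TGACGT from 196 to 191 bases before its start and no ERSE. The ERSE occurs in 0.113% of the 32851 promoter windows of this length, and TGACGT in 6.47%. Windows were given for 7 of the 10 genes. None of those of Creb3l4, Ern1, Xbp1, Atf4 and Ddit3 held either motif. No window of the 7 genes held the full cAMP response element TGACGTCA, which contains the core (1.55% of all windows), the unfolded protein response element TGACGTGG, which also contains it (0.563%), or the ATF4-type element TGATGNAAT (0.816%). A match is a match of letters only.

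The libraries held 15652783 to 18341956 reads on genes, recovered from the steps of the FPKM values. The 10 genes rested on 197 (Ddit3, lowest library) to 17806 reads (Hspa5, highest library) per library. The defining markers of colon tissue were present: no marker of absorptive epithelium, goblet cells or smooth muscle was listed at 0 in any library. Pro-inflammatory diet libraries 2 and 5 stood apart in distal colon homeobox genes, whose summed level was 8.62 and 34.3 FPKM against 262 to 424 in the other 8. Normal diet libraries 1, 2 and 3 stood apart in the clock gene Npas2, with 10.3 to 13.1 FPKM where the other 7 had 2.46 to 6.87. Npas2 itself did not overlap between the diets. On the sum of 12 clock genes these libraries (116 to 129 FPKM) did not stand apart from pro-inflammatory diet library 2 (116). Library 5 of that diet held 155, and the rest held 207 to 265. The 12 had log2 diet differences from -1.13 (Npas2) to 1.44 (Dbp), so opposite changes can cancel in this sum. In bulk tissue, fewer cells of a type and less RNA per cell cannot be told apart.

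The levels spanned more than an order of magnitude. Hspa5 was highest, at 199 to 398 FPKM over the 10 libraries. Creb3l1 (104 to 171), Xbp1 (100.2 to 133) and Atf4 (100.7 to 127) followed with overlapping ranges, so their order is within the spread. Ern2 came next at 33.1 to 52.8, with no library as high as any of Atf4. Creb3l4 (8.10 to 22.1), Atf6 (11.5 to 14.0), Ern1 (9.91 to 14.5) and Creb3l2 (5.64 to 11.3) overlapped one another, apart from Creb3l2 and Atf6, whose ranges did not meet. Ddit3 was lowest, at 4.77 to 8.30, and overlapped the lowest Creb3l4 library and the pro-inflammatory diet values of Creb3l2. The highest library exceeded the lowest by 2.73-fold for Creb3l4, 2.01-fold for Hspa5, 1.996-fold for Creb3l2, 1.33-fold for Xbp1, 1.26-fold for Atf4 and 1.22-fold for Atf6.

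**Figure D1:**
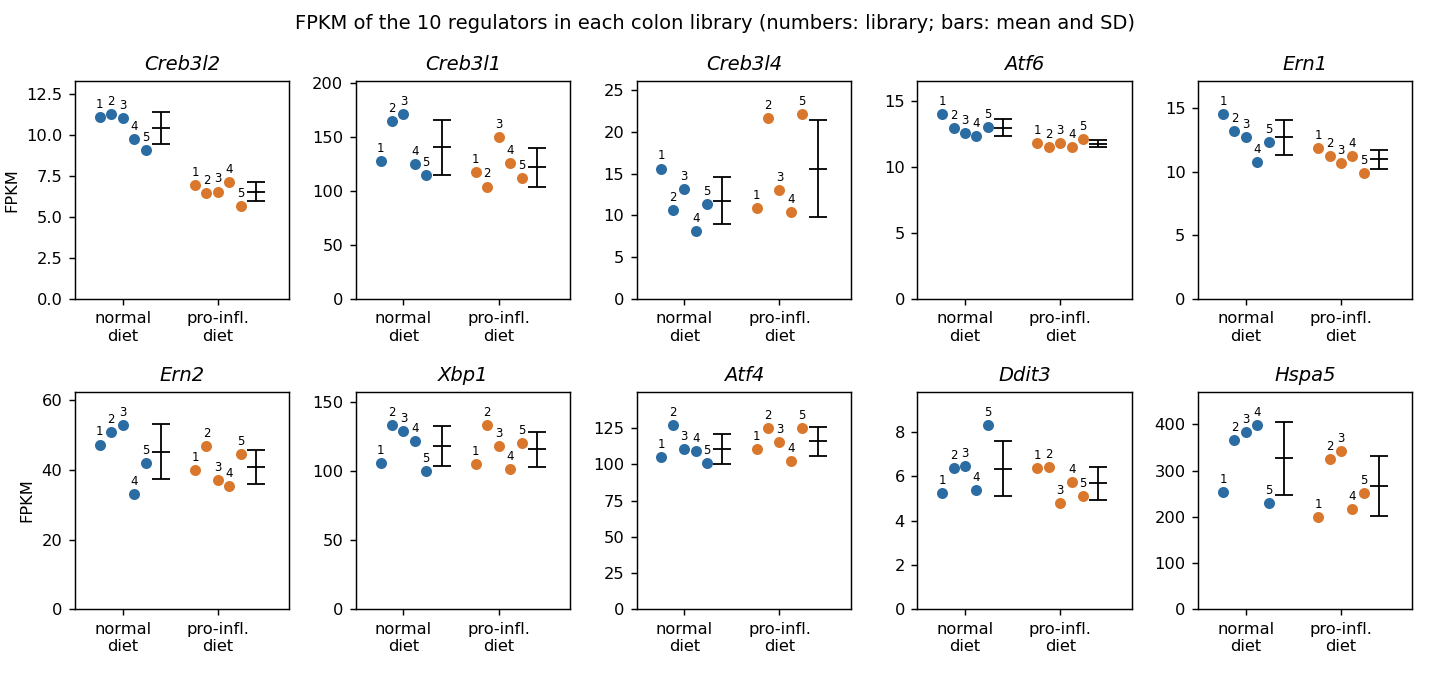
FPKM of each of the 10 genes (y axis, from 0) by diet, 1 point per library with its number, with mean and SD over 5 libraries at the right of each group. The Creb3l2 points of the diets do not overlap (9.10 to 11.3 against 5.64 to 7.11), and the 2 high Creb3l4 points are pro-inflammatory diet libraries 2 and 5.

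Creb3l2 (ENSMUSG00000038648.5, chromosome 6, 37327255 to 37442146, minus strand, GRCm38) was lower on the pro-inflammatory diet in every library. Its FPKM was 11.1, 11.3, 11.02, 9.74 and 9.10 in normal diet libraries 1 to 5 and 6.94, 6.44, 6.55, 7.11 and 5.64 in pro-inflammatory diet libraries 1 to 5. The lowest normal diet library lay above the highest pro-inflammatory diet library. The means were 10.4 ± 0.963 and 6.54 ± 0.570 FPKM (SD, n = 5 each), 37.4% lower, and the log2 difference of FPKM + 1 was -0.60 (SE 0.08). These values rested on 298 to 654 reads per library. Of the 12345 genes tested, 228 had a lower log2 difference, so its rank of 1 rests on the ratio of the difference to the spread. The within-diet SD of Creb3l2 was 0.12 on the log2 scale.

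**Figure D2:**
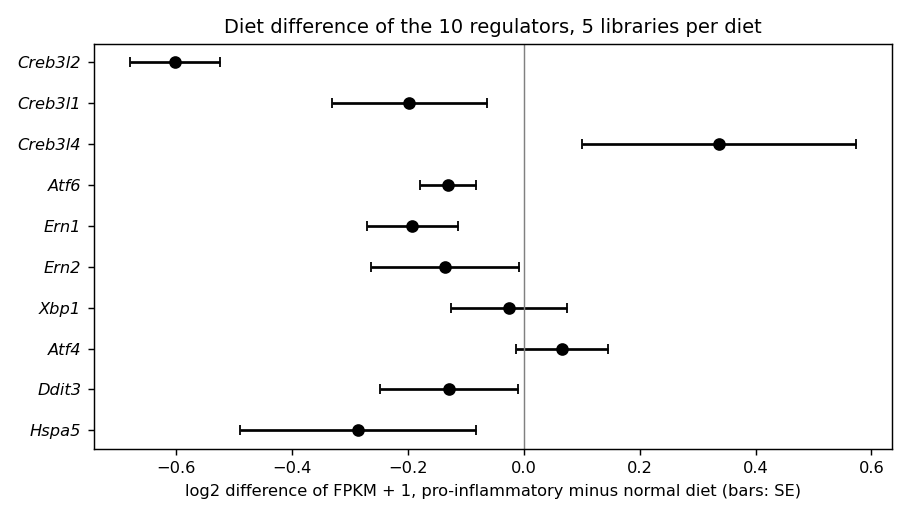
Log2 difference of FPKM + 1 (x axis), pro-inflammatory minus normal diet, for each of the 10 genes, with SE bars from the limma fit over 5 libraries per diet. Creb3l2 lies at -0.60, and the other 9 lie between -0.29 and 0.34.

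The Creb3l2 difference ran from -0.67 to -0.47 under the 24 other settings, with its sign kept in all. Leaving out libraries could not turn the sign, since the diets did not overlap and the gene was chosen for this contrast. Nothing is therefore read from the kept sign. The smallest, -0.47 (SE 0.10), came without normal diet libraries 1, 2 and 3, which had the 3 highest Creb3l2 values. Leaving out pro-inflammatory diet libraries 2 and 5 gave -0.54 (SE 0.08), and removing the trend on gene length gave -0.59. The markers of smooth muscle, fibroblasts and leukocytes each leaned to one side, though 0 passed the limma threshold and the sums overlapped between the diets. With an unadjusted limma p under 0.05, 8 muscle and 5 matrix markers were lower (against 9.25% of all tested genes). For leukocytes, 1 marker was higher at that p (against 8.16%). Absorptive epithelium markers were mixed, with 6 of 10 higher and 4 lower (2 higher and 0 lower at that p). Beside this and the marker counts that follow, 47.1% of all tested genes were higher and 52.9% lower, whatever their p. All 10 smooth muscle markers had lower values on the pro-inflammatory diet (summed level 2710 to 4022 FPKM on the normal and 2352 to 3239 on the pro-inflammatory diet), as did all 10 fibroblast and matrix markers (408 to 526.1 and 274 to 429). By library, the muscle sum was 4022, 2710, 3346, 3322 and 3795 FPKM on the normal and 2770, 2352, 2549, 2871 and 3239 on the pro-inflammatory diet. All 9 leukocyte markers had higher means on the pro-inflammatory diet (178 to 271 and 196 to 336). The goblet cell marker sum overlapped between the diets (8560 to 10888 and 9208 to 10951 FPKM), with 5 of 10 markers higher. The log2 differences of these 10 markers ran from -0.60 (Clca1) to 0.36 (Galnt12). Agr2, a goblet cell disulfide isomerase needed for mucin, was at 1417 ± 309 and 1773 ± 556 FPKM (limma adjusted p = 0.525). The part of these cell markers in the Creb3l2 difference was not tested.

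**Figure D3:**
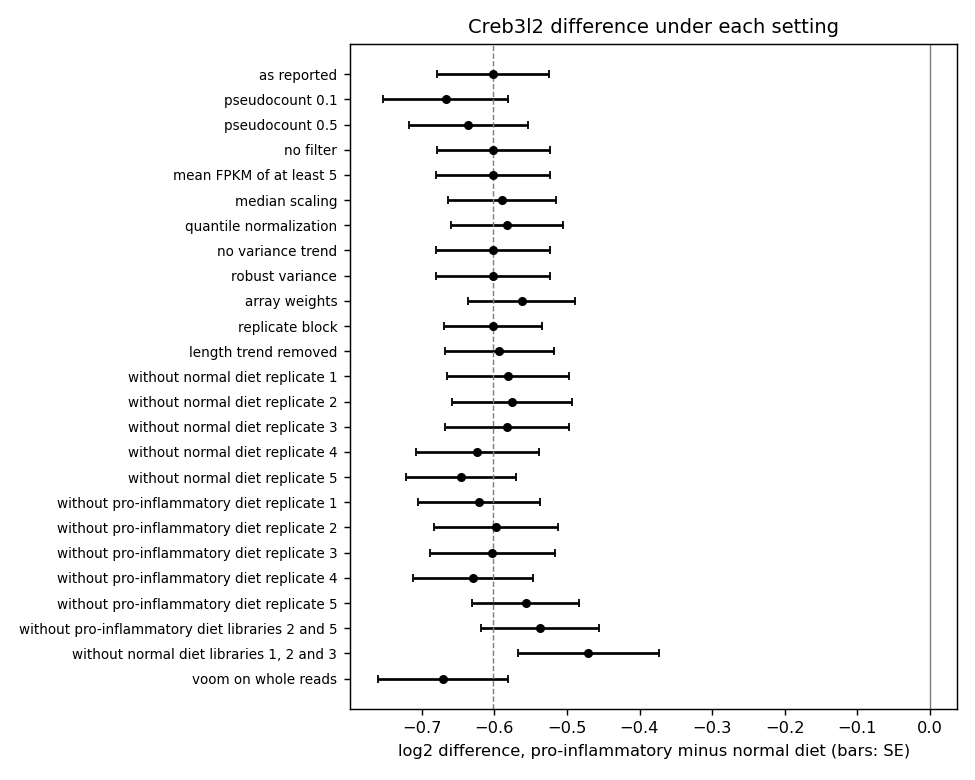
Log2 difference of Creb3l2 (x axis, pro-inflammatory minus normal diet, SE bars) as reported and under each other setting (rows). All 25 points lie between -0.67 and -0.47, and the smallest difference is without normal diet libraries 1, 2 and 3. Leaving out libraries could not bring a point above 0, since the diets did not overlap.

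Creb3l1 and Creb3l4, the closest relatives of Creb3l2 on the list, overlapped between the diets. Creb3l1 (chromosome 2, 91982328 to 92024502, minus strand), the OASIS factor of goblet cells, was at 127, 164, 171, 125 and 114 FPKM on the normal diet and 117, 104, 150, 126 and 112 on the pro-inflammatory diet. The diets overlapped, with normal diet libraries 2 and 3 highest. The means were 140 ± 25.5 and 122 ± 17.7 (log2 difference -0.20, SE 0.13), and without normal diet libraries 1, 2 and 3 the difference was 0.01. Creb3l1 was more abundant than Creb3l2 in every library, by 11.5 to 15.5 times on the normal and 16.1 to 22.9 times on the pro-inflammatory diet, a ratio that includes the Creb3l2 difference.

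Creb3l4 (chromosome 3, 90237500 to 90243512, minus strand), a related factor best known from prostate and testis, was at 15.6, 10.6, 13.1, 8.10 and 11.3 FPKM on the normal diet. On the pro-inflammatory diet it was at 10.8, 21.6, 13.0, 10.3 and 22.1. Libraries 2 and 5 of that diet were above every other library, and the other 3 lay inside the normal diet range. The means were 11.8 ± 2.80 and 15.6 ± 5.82 (log2 difference 0.34, SE 0.24), and the difference was -0.02 without libraries 2 and 5 and 0.03 with libraries weighted by their fit. These are the libraries with low distal colon homeobox levels, and the part of that in the Creb3l4 values was not tested.

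The other membrane-bound factors of this kind were Creb3, Creb3l3 and Atf6b. Creb3, the founding member, was at 22.4 ± 1.45 and 23.9 ± 2.03 FPKM, and Atf6b, the paralog of Atf6, at 22.6 ± 2.13 and 23.3 ± 2.92. Creb3l3, a factor of liver and small intestine, was at 1.15 ± 0.509 and 1.62 ± 0.555. All 3 had higher means on the pro-inflammatory diet, and 0 passed the limma threshold, an adjusted p of 0.05 (lowest adjusted p = 0.430). None of the 3 had an unadjusted p under 0.05. Over all 12345 tested genes, 0% passed, and 17.4% had an unadjusted p under 0.05, 8.16% higher and 9.25% lower. Whatever their p, 47.1% of all tested genes had a log2 difference above 0 and 52.9% one below it. The proteases that release these factors, Mbtps1 (site-1 protease) and Mbtps2 (site-2 protease), were at 39.8 ± 3.68 against 37.4 ± 2.43 and 4.62 ± 0.576 against 4.34 ± 0.335 FPKM, with limma adjusted p values of 0.551 and 0.660.

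Atf6 (chromosome 1, 170704674 to 170867771, minus strand), the membrane-bound sensor that drives chaperone genes, had the narrowest spread of the 10 genes. It was at 14.0, 12.9, 12.5, 12.3 and 13.0 FPKM on the normal diet and 11.8, 11.5, 11.8, 11.5 and 12.1 on the pro-inflammatory diet. Here too every pro-inflammatory diet library lay below every normal diet library, by a narrow margin (12.1 against 12.3). The means were 12.9 ± 0.638 and 11.7 ± 0.276, 9.40% lower (log2 difference -0.13, SE 0.05). Atf6 is 2.34 times as long as the median tested gene. With each library's trend on gene length removed, its difference was -0.05 (SE 0.05). The part of gene length in the Atf6 difference was not tested. Creb3l2 and Atf6 were the 2 of 10 genes without overlap between the diets, and 3.83% of all tested genes were without overlap. Because the list was drawn up from this contrast, nothing is read from that count.

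Ern1, which encodes the widely expressed sensor IRE1-alpha (chromosome 11, 106394650 to 106487852, minus strand), was at 14.5, 13.2, 12.8, 10.8 and 12.4 FPKM on the normal diet. It was at 11.9, 11.3, 10.7, 11.2 and 9.91 on the pro-inflammatory diet. Normal diet library 4 fell within the pro-inflammatory diet range, and the other 4 normal diet libraries lay above all 5 of the other diet. The means were 12.7 ± 1.37 and 10.99 ± 0.739 (log2 difference -0.19, SE 0.08). The difference was -0.07 (SE 0.09) without normal diet libraries 1, 2 and 3, and -0.12 (SE 0.07) with the length trend removed. Ern1 is 2.05 times as long as the median tested gene, and the part of length in its difference was not tested.

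Ern2 (chromosome 7, 122169893 to 122186207, minus strand) encodes IRE1-beta, the form particular to mucosal epithelium and high in goblet cells. It was at 47.2, 50.7, 52.8, 33.1 and 41.9 FPKM on the normal diet and 39.9, 46.7, 37.1, 35.3 and 44.4 on the pro-inflammatory diet. Normal diet library 4 was the lowest of all 10, and the ranges overlapped. The means were 45.1 ± 7.90 and 40.7 ± 4.82 (log2 difference -0.14, SE 0.13), and the sign turned without normal diet libraries 1, 2 and 3 (0.12, SE 0.14). Ern2 exceeded Ern1 in every library, by 3.08 to 4.14 times on the normal and 3.14 to 4.48 times on the pro-inflammatory diet.

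Xbp1 (chromosome 11, 5520659 to 5525893), whose mRNA the IRE1 proteins splice, was at 106, 133, 129, 122 and 100.2 FPKM on the normal diet and 105, 133, 118, 102 and 120.0 on the pro-inflammatory diet. The diets covered nearly the same range, with means of 118 ± 14.3 and 116 ± 12.6 (log2 difference -0.03, SE 0.10). FPKM per gene does not separate spliced from unspliced Xbp1, so IRE1 activity was not measured.

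Atf4 and Ddit3, the factors downstream of PERK and the other eIF2-alpha kinases, also overlapped between the diets. Atf4 (chromosome 15, 80255184 to 80257541), which is controlled mainly at translation, was at 105, 127, 111, 109 and 100.7 FPKM on the normal and 111, 125, 116, 102 and 125 on the pro-inflammatory diet. The highest value was in normal diet library 2, and the means were 111 ± 10.1 and 116 ± 9.73 (log2 difference 0.07, SE 0.08). Ddit3 (chromosome 10, 127290774 to 127296288), which encodes the pro-apoptotic factor CHOP, was at 5.22, 6.35, 6.46, 5.36 and 8.30 FPKM and at 6.38, 6.41, 4.77, 5.73 and 5.09. The highest Ddit3 value was in normal diet library 5. The means were 6.34 ± 1.23 and 5.68 ± 0.742 (log2 difference -0.13, SE 0.12). Ddit3 overlaps Mars1, on the other strand, and the sources used here do not say whether the counting used strand. Eif2ak3, which encodes PERK, was at 13.1 ± 1.45 and 12.9 ± 1.12 FPKM (limma adjusted p = 0.915).

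Targets of ATF4 and CHOP, many of them enzymes of amino acid metabolism, were highest as a sum in 2 libraries. The 22 target genes together reached 710 FPKM in library 2 and 818 in library 5 of the pro-inflammatory diet. The remaining 8 libraries held 375 to 494. Much of that excess was 1 gene, the stress-induced chromatin protein Nupr1, with 325 and 454 FPKM in those libraries and 72.1 to 197 in the others, a gene named after its values were seen. Without Nupr1 the other 21 targets summed to 385 and 365 FPKM in those libraries and 283 to 339 in the others. Plasma cell markers were also highest there as a sum, with 442 and 358 FPKM against 168 to 265 elsewhere. So were absorptive epithelium markers, with 9767 and 9106 FPKM against 5096 to 7946. Abundant genes led both sums, so neither speaks for its whole list. These were Jchain and Sdc1 (means 149 and 65.6 FPKM), and Krt8, Krt19 and Car1 (2165, 1804 and 940). Log2 diet differences ran from -0.22 (Sdc1) to 0.57 (Jchain) among tested plasma cell markers. Among absorptive markers they ran from -0.65 (Aqp8) to 1.88 (Car1). Libraries 2 and 5 of the pro-inflammatory diet also had low distal colon homeobox levels. The part of any of these in the target values was not tested. Of the 19 targets tested, 14 had higher and 5 lower values on the pro-inflammatory diet, where 47.1% of all tested genes were higher. The median log2 difference was 0.09, against -0.01 over all tested genes. The limma test passed 0 of the targets. An unadjusted p under 0.05 was reached by 3 higher and 0 lower targets, against 8.16% and 9.25% of all tested genes. Phgdh, of serine synthesis, was at 6.16 ± 1.54 and 10.2 ± 3.77 FPKM (adjusted p = 0.224). Shmt2, of mitochondrial one-carbon metabolism, was at 12.9 ± 1.14 and 16.002 ± 1.46 (adjusted p = 0.173), and the alanyl-tRNA synthetase Aars at 12.6 ± 2.31 and 17.7 ± 3.44 (adjusted p = 0.184).

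Asns, asparagine synthetase, was at 11.9 ± 1.88 and 15.1 ± 4.25 FPKM (limma adjusted p = 0.405), with 19.5 and 18.9 in pro-inflammatory diet libraries 2 and 5. The stress factor Atf3 was at 11.7 ± 4.43 and 13.1 ± 7.30 (adjusted p = 0.911). Trib3 and Chac1, usual markers of strong CHOP activity, were low throughout, at 0.249 to 0.605 and 0.282 to 0.983 FPKM, and were below the filter with Slc7a11. Without pro-inflammatory diet libraries 2 and 5, 13 of 19 targets were higher and the target median was 0.04. The median also depended on single libraries, at 0.25 without normal diet library 1, 0.14 without normal diet library 2, and 0.17, 0.15 and 0.28 without pro-inflammatory diet libraries 1, 3 and 4. An unadjusted p under 0.05 was reached by 8 targets without pro-inflammatory diet library 1. Among the eIF2-alpha kinases and the subunits around eIF2B, 6 of 10 were higher (against 47.1% of all tested genes) and 0 passed. Of the 10, 1 higher and 0 lower had an unadjusted p under 0.05 (all tested genes: 8.16% and 9.25%). Eif2b2 of eIF2B was at 20.1 ± 1.25 and 23.7 ± 2.38 (adjusted p = 0.199), and Eif2ak2, the interferon-induced kinase PKR, at 13.9 ± 0.580 and 17.3 ± 4.999, with 25.8 in pro-inflammatory diet library 5.

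Hspa5 (chromosome 2, 34771970 to 34777547) varied widely within each diet. It was at 254, 366, 384, 398 and 230 FPKM on the normal diet and 199, 326, 343, 217 and 252 on the pro-inflammatory diet. Each diet had libraries at the low and at the high end, and the ranges overlapped. The means were 326 ± 78.6 and 267 ± 64.5 (log2 difference -0.29, SE 0.20), and the difference ran from -0.40 to -0.19 when single libraries were left out.

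**Figure D4:**
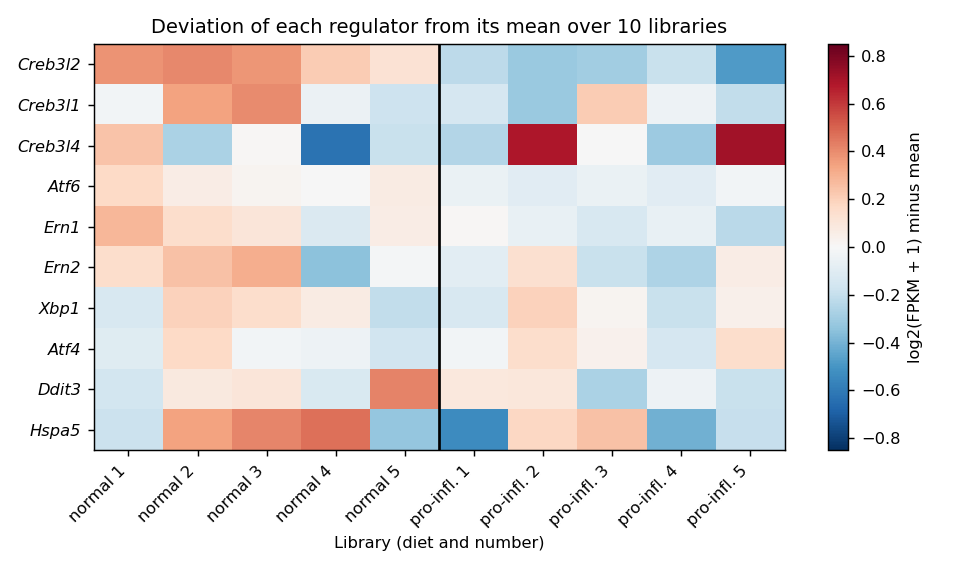
Deviation of log2(FPKM + 1) of each gene (rows) from its mean over the 10 libraries (columns, by diet and number), red above and blue below the mean. Creb3l2 is above its mean in all 5 normal diet libraries and below it in all 5 others, while Xbp1, Atf4 and Hspa5 vary within each diet.

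Most other ER folding genes had a log2 difference above 0, where Hspa5 was below it. Of 20 other chaperones and folding enzymes tested, 15 had higher and 5 lower values on the pro-inflammatory diet (47.1% of all tested genes were higher). Their median log2 difference was 0.05, and 0 passed the limma test. With an unadjusted p under 0.05 there were 3 higher and 0 lower, against 8.16% and 9.25% of all tested genes. That count of 3 was 5 without library 4 of the normal or library 1 or 4 of the pro-inflammatory diet (medians 0.12, 0.11 and 0.08), 1 without normal diet library 1, 2 or 3, and 0 without library 5 of the normal or library 2, 3 or 5 of the pro-inflammatory diet. The calcium-binding chaperone Calr was at 414 ± 78.1 and 505 ± 62.2 FPKM (adjusted p = 0.268), and the disulfide isomerases Pdia3 at 252 ± 23.0 and 289 ± 22.7 (adjusted p = 0.244) and P4hb at 227 ± 23.7 and 264 ± 33.5 (adjusted p = 0.311). Hsp90b1, the ER form of HSP90, was at 333 ± 40.6 and 330 ± 38.0, and the XBP1 target Dnajb9 at 29.5 ± 2.16 and 29.5 ± 1.95. The ATF6 target Sdf2l1 was at 28.9 ± 7.17 and 34.4 ± 7.73. Another list member, Fkbp2, was listed at 0 in 9 of 10 libraries and was not tested.

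ER-associated degradation, which returns misfolded proteins to the cytosol, had 9 of 18 genes higher, against 47.1% of all tested genes, and 9 lower (median log2 difference 0.00). That count was 13 higher (median 0.06) without normal diet libraries 1, 2 and 3, and 5 higher with libraries weighted by their fit. Sel1l, the adaptor of the degradation ligase, was at 28.5, 26.7, 28.7, 31.8 and 28.1 FPKM on the normal diet and 25.6, 25.5, 26.2, 24.8 and 23.6 on the pro-inflammatory diet. Ube2g2, a ubiquitin-conjugating enzyme of the same route, was at 26.3, 32.1, 31.3, 25.4 and 24.9 and at 22.1, 24.6, 24.5, 21.7 and 21.1. Both genes were lower in every pro-inflammatory diet library, as were 2.07% of all tested genes, and neither passed the limma test (log2 differences -0.18 and -0.28, adjusted p = 0.182 and 0.183). They were the only 2 genes of the 18 with an unadjusted p under 0.05, and 9.25% of all tested genes were lower at that level. Of the 18, 0 passed the adjusted threshold. Herpud1, a usual stress-induced gene of this group, was at 79.6 ± 6.28 and 74.2 ± 7.28 FPKM (adjusted p = 0.505).

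The list of proteases and sensor partners had 2 higher and 1 lower gene at an unadjusted p under 0.05 (all tested genes: 8.16% and 9.25%). Of its 11 genes, 3 were higher and 8 lower (47.1% and 52.9% of all tested genes), and 0 passed (median log2 difference -0.06). It was 5 of 11 higher (median -0.03) without pro-inflammatory diet libraries 2 and 5 and 6 of 11 (median 0.02) without normal diet libraries 1, 2 and 3. The oxidase Ero1a was at 13.3 ± 0.381 and 12.2 ± 0.486 FPKM, without overlap between the diets (adjusted p = 0.260). The apoptosis effector Bak1 was at 59.4 ± 4.99 and 73.7 ± 14.5 (adjusted p = 0.272), with 89.7 and 87.9 in pro-inflammatory diet libraries 2 and 5.

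Genes of vesicle transport, among them the known CREB3L2 target Sec23a, mostly had higher means on the pro-inflammatory diet, and 0 passed the limma test. In the COPII coat and ER exit list, 19 of 22 genes were higher, against 47.1% of all tested genes (median log2 difference 0.09). At an unadjusted p under 0.05 there were 2 higher and 0 lower genes, against 8.16% and 9.25% of all tested genes. Sec23a was at 25.5, 23.6, 23.7, 23.1 and 25.1 FPKM on the normal diet and 24.1, 25.4, 24.5, 25.4 and 26.5 on the pro-inflammatory diet. The diets overlapped for Sec23a (log2 difference 0.05, SE 0.05, limma adjusted p = 0.553). CREB3L2 protein was not measured, and the link of Sec23a to Creb3l2 in this tissue was not tested. Sec24d, its partner in the coat, was at 11.7 ± 2.26 and 14.3 ± 1.94 (adjusted p = 0.304), Sar1b, the GTPase that starts the coat, at 39.9 ± 1.81 and 45.4 ± 1.93 (adjusted p = 0.173), and Sec13 at 64.3 ± 10.4 and 79.5 ± 8.07 (adjusted p = 0.207). Leaving out pro-inflammatory diet libraries 2 and 5, 13 of 22 were higher, with a median of 0.03. The COPII median was 0.06 without library 5 of the normal or library 2 of the pro-inflammatory diet, and the count of 2 was 5 without normal diet library 4 and 4 without pro-inflammatory diet library 1.

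In the COPI coat and Golgi return list, 17 of 19 genes were higher (median 0.11), against 47.1% of all tested genes. At an unadjusted p under 0.05 there were 5 higher and 1 lower, against 8.16% and 9.25% of all tested genes. Cope, a COPI subunit, was at 82.3, 80.7, 79.3, 88.4 and 76.4 FPKM on the normal diet and 90.4, 92.7, 98.2, 93.4 and 99.3 on the pro-inflammatory diet (adjusted p = 0.166). Cope and Kdelr1, a receptor that returns chaperones to the ER and was noticed after the values were seen, were higher in every pro-inflammatory diet library, as were 1.77% of all tested genes. Copb2, another coat subunit, was at 86.8 ± 8.68 and 106 ± 11.4 (adjusted p = 0.185), and Kdelr2 at 68.9 ± 3.71 and 80.1 ± 6.16 (adjusted p = 0.185). In the translocon and signal peptidase list, whose proteins bring new chains into the ER, 16 of 19 genes were higher (median 0.12), against 47.1% of all tested genes. Of these genes, 1 higher and 0 lower had an unadjusted p under 0.05 (all tested genes: 8.16% and 9.25%). Sec61b of the translocon was at 120 ± 12.1 and 143 ± 15.6 (adjusted p = 0.224). Leaving out pro-inflammatory diet libraries 2 and 5, the translocon list had 17 of 19 genes higher with a median of 0.04, and 0 genes had an unadjusted p under 0.05. The count of 1 was also 0 without library 5 of the normal or library 2 or 3 of the pro-inflammatory diet, 2 without normal diet library 4 and 4 without pro-inflammatory diet library 1. For the COPI list, the count of 5 higher genes was 8 without library 4 of the normal or library 1 of the pro-inflammatory diet, and 1 without normal diet libraries 1, 2 and 3.

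**Figure D5:**
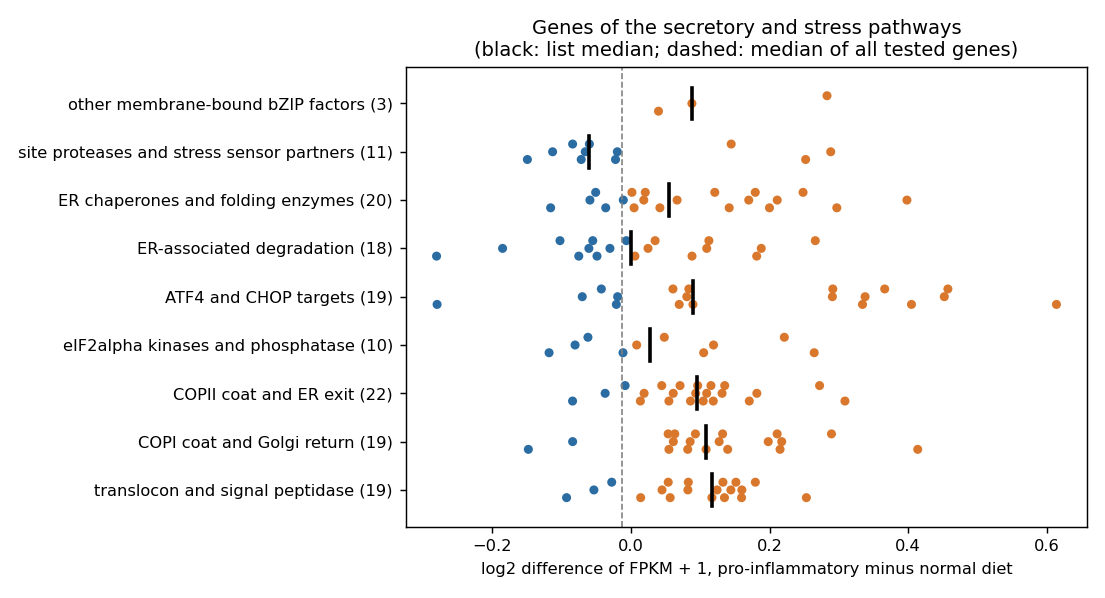
Log2 difference of FPKM + 1 (x axis, pro-inflammatory minus normal diet) of each tested gene in the 9 pathway lists (rows, number of genes in parentheses), orange above and blue below 0, with the list median in black and the median of all 12345 tested genes dashed at -0.01. The COPII, COPI and translocon lists have medians of 0.09 to 0.12, and the degradation list is centred near 0.

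The 10 genes did not vary as 1 group. After each diet's mean was subtracted, the log2 values of Xbp1 went with those of Atf4 (Pearson's r = 0.88, Spearman's rho = 0.95) and of Hspa5 (r = 0.88, rho = 0.64) over the 10 libraries, as a description with no test. Creb3l4 went with Ern2 (r = 0.74, rho = 0.75). Creb3l2 went with Ern1 (r = 0.70, rho = 0.71) and less closely with Creb3l1 (r = 0.58, rho = 0.50). It hardly went with Xbp1 (r = 0.05), Hspa5 (r = 0.04) or Atf6 (r below 0.01 in size). All these values share the same libraries and their totals.

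Over all 10 libraries, the tested genes with the pattern most like Creb3l2, by Pearson's r of log2(FPKM + 1), were Npas2 (0.96), Pdpk1 (0.96), Mga (0.95), Atp10b (0.95) and Wdfy3 (0.95). Those most opposed were Tmem220 (-0.96), Idh1 (-0.95), Fis1 (-0.95), Chrac1 (-0.94) and Qdpr (-0.93). All 10 of them lay without overlap between the diets, so this likeness follows the diet contrast for which Creb3l2 was chosen. With the diet means subtracted, the most alike were Cebpd (0.94), Fam104a (0.93), Mfsd14a (0.92), Depdc5 (0.90) and Map7 (0.90), and the values of each of these overlapped between the diets. Cebpd was at 17.5, 18.8, 17.6, 13.7 and 13.9 FPKM on the normal and 16.1, 12.0, 13.0, 15.0 and 9.40 on the pro-inflammatory diet. Like Creb3l2, it was highest in normal diet libraries 1, 2 and 3 and lowest in pro-inflammatory diet library 5. Cebpd was picked out of the 12345 tested genes for this likeness, so nothing is read from the shared order.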

How the data were processed

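The deposited table holds FPKM values per gene symbol and library, as the authors made them. Per the submitters' processing notes, build mm10 was used with HISAT2, Bowtie2, StringTie, Cufflinks, HTSeq, Trimmomatic and DESeq, whose roles are not stated. Gene positions are from GENCODE M21 (GRCm38, the assembly of mm10), and promoters from RefSeq GRCm38.p6. Genes with a mean of at least 1 FPKM entered limma (version 3.58.1, R 4.3.3) as log2(FPKM + 1) (eBayes with a mean trend, all 10 libraries, Benjamini-Hochberg over 12345 genes at 0.05). Fold changes on this scale understate those of low genes. The values of 18398 of 18398 genes were whole multiples of 1 read within 0.001 read, which gave the depth and relative gene lengths. Scripts were tested on simulated data. The members and lists were chosen with earlier results of these data known. Named beside the members were 4 genes per pathway list with the smallest p, a fixed set of genes whatever their p, and those most or least like Creb3l2. Other settings changed the pseudocount, filter, scaling, variance model, weights, length trend, block and libraries. Voom on the reads was added after the data were seen.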

Additional observations from a re-analysis of the deposited data

Results flagged for a closer look

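Of 146 groups of 5 libraries, for 73 genes in 2 diets, 7 held a library far from the other 4. Chance flags about 1 in 20, so the total is near what chance gives. Normal diet library 4 was high for 5 genes of the secretory and stress lists, all named for a small p in these same libraries. It held Calr at 549 FPKM (359 to 413 in the other 4), Copb2 at 102 (81.0 to 84.0), Sec13 at 82.5 (57.3 to 62.6), Bak1 at 68.1 (56.2 to 58.9) and Aars at 16.5 (10.7 to 12.2). The same library had the highest Hspa5 value (398) and the lowest Ern2 (33.1) and Creb3l4 (8.10) values of all 10, none of them flagged. Pro-inflammatory diet library 4 held Dnajb9 at 32.9 FPKM (28.0 to 29.3 in the other 4), and pro-inflammatory diet library 1 held Qdpr at 55.7 (58.7 to 59.8).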

How the results depend on the processing

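Over 24 other settings limma passed 0 genes at an adjusted p of 0.05, voom on the reads and the fit with a replicate block included. At an unadjusted p under 0.05 there were 2149 genes as reported, 2165 with voom, 1836 with the block and 502 without normal diet libraries 1, 2 and 3. The replicate numbers are not stated to pair the libraries, and deviations of same-numbered libraries correlated at -0.26 to 0.06, with no library best matched to its own number. The Creb3l2 difference was -0.60 with the replicate block. It ran from -0.65 to -0.56 when single libraries were left out and moved by more than the spread between libraries only without normal diet libraries 1, 2 and 3 (-0.47), where the cause was not tested. Creb3l2, Atf6, Ern1, Ddit3 and Hspa5 kept their sign throughout. For Creb3l2 and Atf6, whose diets did not overlap, leaving out libraries could not turn it. Creb3l1, Creb3l4, Ern2 and Atf4 turned in 1 setting each and Xbp1 in 5, all at differences within the spread apart from Ern2. The lowest Ddit3 library rests on 197 reads. Counts or medians of the pathway lists moved with single libraries, as given beside the chaperone, ATF4 and CHOP target, COPII, COPI and translocon lists. For proteases and sensor partners, the count of 2 higher genes at an unadjusted p under 0.05 was 3 without normal diet library 4. It fell to 0 on leaving out any of 5 single libraries, numbers 1, 2 and 5 of the normal and 2 and 3 of the pro-inflammatory diet. The eIF2-alpha list median went from 0.03 to -0.005 without normal diet library 1.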
